A study of Homo sapiens with 8 samples.

Results

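De novo fatty acid synthesis turns carbon from sugar into fat, and it is a main task of the liver cell. Citrate leaves the mitochondrion and is cleaved by ATP citrate lyase (ACLY) to cytosolic acetyl-CoA. The acetyl-CoA carboxylases (ACACA and ACACB) convert it to malonyl-CoA, and fatty acid synthase (FASN) joins these units into palmitate with NADPH that malic enzyme (ME1) helps to supply. Palmitate is then lengthened by ELOVL6, desaturated by SCD, and built into glycerolipids from a step catalysed by GPAM. The pathway is set mainly at transcription, by SREBP-1c under insulin and by ChREBP (MLXIPL) under glucose, and THRSP is a small nuclear protein induced with it.

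The 10 genes were chosen by name, as annotated in GENCODE 44. Of the 60628 peaks of an ATAC-seq library, 63 had a summit in the body of these genes or within 20 kb of it, where the summit is the position of highest signal in a peak. ATAC-seq uses the Tn5 transposase to place sequencing adapters in accessible DNA. The library came from HepG2, a line grown from a human liver cancer and wild-type only in that no genetic modification is described. The cells had been fixed in 0.1% formaldehyde (FA) and cryopreserved. It was 1 of 8 bulk HepG2 libraries, fixed with 0.1, 0.5, 1 or 5% FA and cryopreserved or flash-frozen. The other 7 were not analysed here, and neither was a replicate, so no value carries an error between replicates and no difference was tested. Shares carry an exact (Clopper-Pearson) 95% interval, which covers error of counting alone.

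Each peak is described by its fold, the enrichment of fragments at the summit over the local background as the authors' peak caller gave it, and by its −log10 q. How many fragments lay at the summit, and how many its surroundings predicted (the local background), was worked out from that fold and the −log10 p. The answer fell within 0.01 of a whole number of fragments for all 63 peaks and for 99.71% of the 60474 nuclear peaks. The peaks of the fatty acid synthesis genes held 4 to 114 fragments at the summit, with a median of 22, against a median of 17 over all nuclear peaks. In 9 of the 63 peaks there were at most 10 fragments, so their fold rests on few fragments. The smallest peaks of the library held 4 fragments, and a stretch without a peak may still have held fragments. A peak at a start site shows accessible DNA and not how much the gene was transcribed.

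A TSS peak, with its summit within 1000 bp of the start of the canonical transcript, was found at 6 of the 10 genes (interval 26.24 to 87.84%), against 12229 of all 20033 protein-coding genes (61.0%). ACLY, ACACA, ACACB, FASN, SCD and MLXIPL had such a peak, and ELOVL6, THRSP, ME1 and GPAM had none. Starts of any annotated transcript added GPAM, which gave 7 of 10 genes, against 66.6% of all protein-coding genes. All 10 genes had a peak in its body or within 20 kb, as had 88.3% of all protein-coding genes. These shares of the fatty acid synthesis genes lay close to those of all coding genes, with wide intervals. FASN and SCD each had a pair of TSS peaks, so there were 8 TSS peaks in all. More than 1 TSS peak was also found at 23.32% of coding genes that had any. All 8 summits lay upstream of the start, as did 77.83% of TSS peak summits over all coding genes. The remaining peaks were 24 in gene bodies (38.1%, interval 26.15 to 51.2%) and 31 in the flanks. The same split was not counted over all coding loci. The SCD peak 680 bp upstream of its start (fold 5.95) was just inside the TSS window, as were the FASN peak at 612 bp and the ACACB peak at 627 bp. The MLXIPL peak 1302 bp downstream (fold 18.0) and the THRSP peak 1841 bp upstream (fold 8.76) were just outside it. At the outer limit, a FASN peak 19.61 kb from the gene (fold 9.53) was inside, and an SCD peak at 20.37 kb (fold 9.26) was outside.

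**Figure D1:**
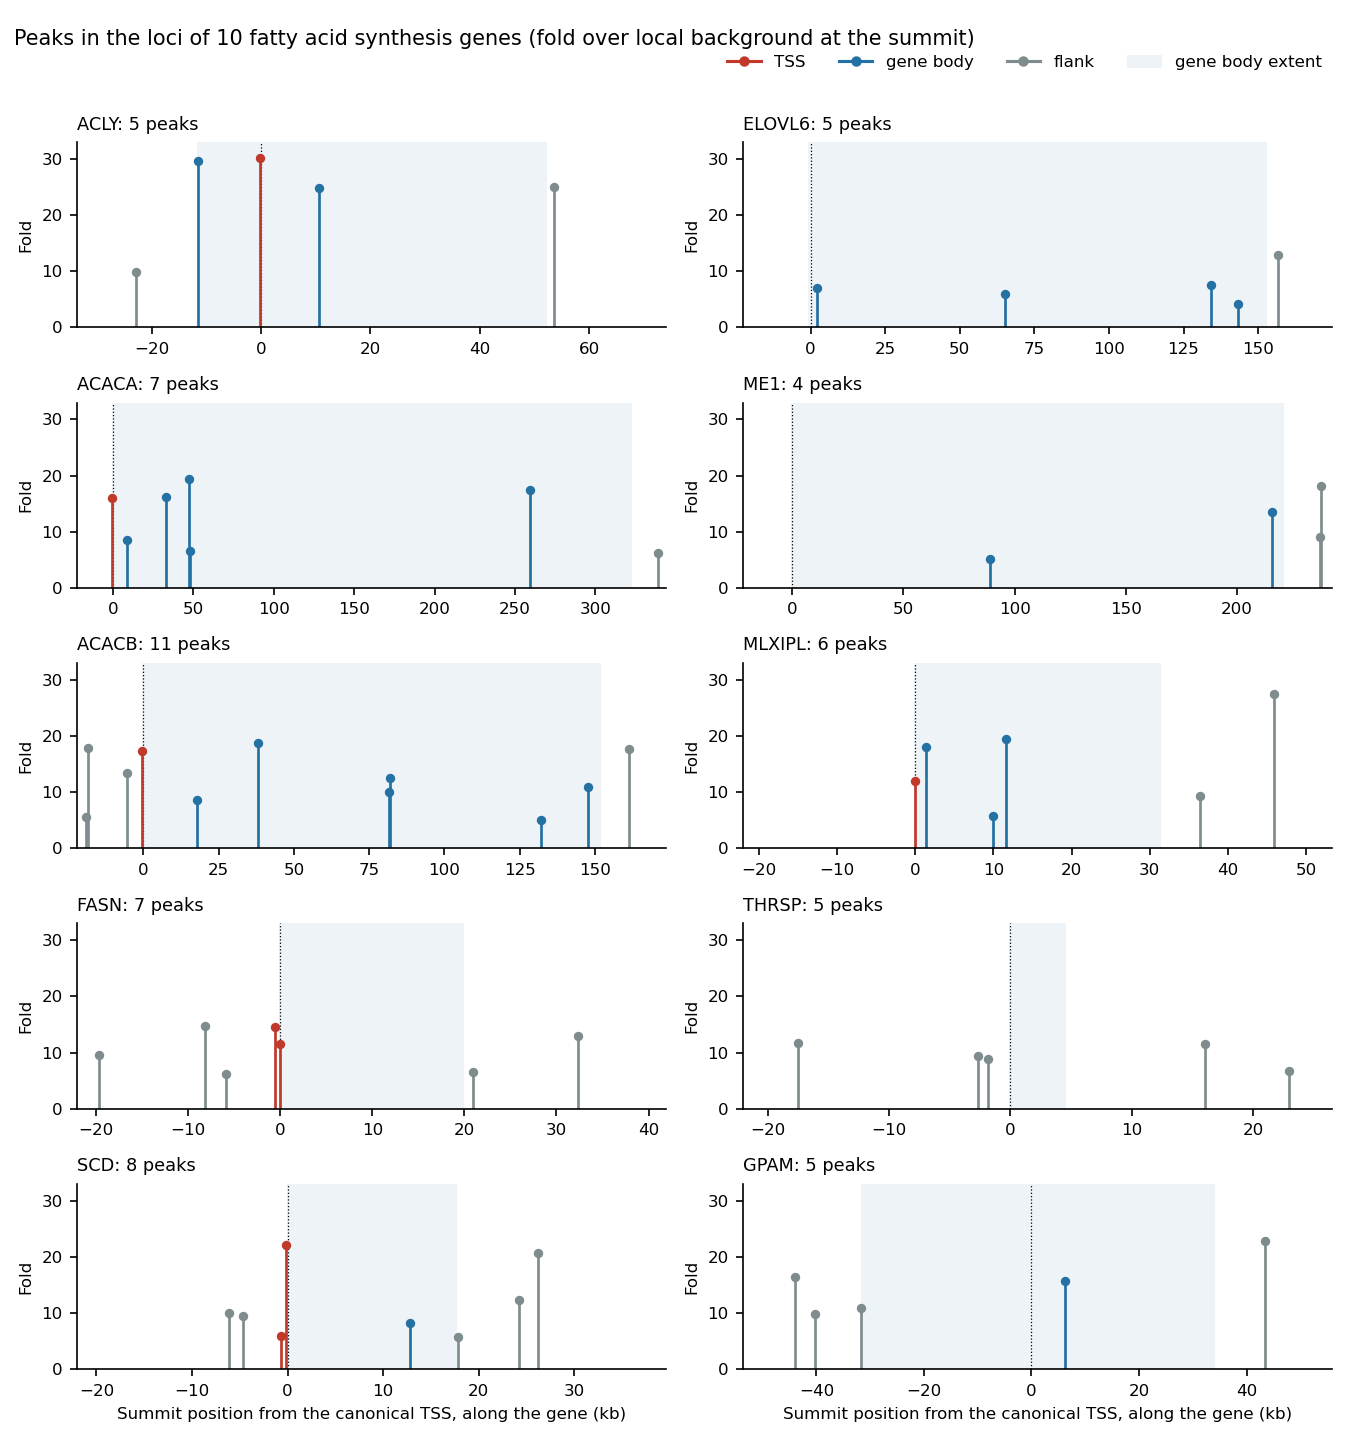
Peaks of the 10 fatty acid synthesis genes, with the distance of each summit from the canonical TSS along the gene (kb) on the x axis and the fold over local background on the y axis; red marks TSS peaks, blue gene body peaks and grey flank peaks, and the shaded stretch is the annotated gene. ACLY reaches a fold of 30.2 at its TSS, while ELOVL6, ME1, THRSP and GPAM show no red peak.

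ACLY, the enzyme that makes cytosolic acetyl-CoA, had the highest TSS fold of the 10 genes. ACLY lies at chr17:41866917-41930542 on the minus strand of GRCh38 (ENSG00000131473.17). Its TSS peak was centred 178 bp upstream of the canonical start, with a fold of 30.2, a −log10 q of 133, 114 fragments against a background of 2.81, and a width of 283 bp. The fold was higher than at 96.4% of coding genes that had a TSS peak, and the fragment count was higher than at 97.0% of them. The sequence around this summit is shown because it holds both motifs that recurred at these start sites. Sequences here run 5′ to 3′ along the gene's own strand. Capitals mark CCAAT (the NFY motif), GGGCGG (the SP/KLF motif or GC box) and TGANTCA (the AP-1 motif) on either strand, and exons of coding genes were trimmed off. ACLY, chr17:41919029-41919229, minus strand:
ACLY TSS peak: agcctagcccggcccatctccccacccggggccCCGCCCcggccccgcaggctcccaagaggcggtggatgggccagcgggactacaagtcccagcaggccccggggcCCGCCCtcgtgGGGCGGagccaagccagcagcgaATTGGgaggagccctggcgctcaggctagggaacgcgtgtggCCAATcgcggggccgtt
This stretch held 2 CCAAT and 3 GC box matches.

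ACLY had 4 other peaks, and 3 of them also had a fold above 20. In intron 6, 10.6 kb downstream of the start, a peak reached a fold of 24.8 with 57 fragments. A peak 11.6 kb upstream (fold 29.6, 72 fragments) lay at the start of ODAD4 and 21 bp from the start of a longer ACLY transcript. That region was also the only member peak with an NRF1 match and the only one with a GABPA match, CCGGAAGT. A flank peak 53.5 kb downstream (fold 24.9, 62 fragments) lay at the start of KLHL11. The weakest, 22.9 kb upstream, had a fold of 9.95 with 13 fragments and the only HNF4A match, CAAAGTCCA. So 2 of the 5 peaks counted to ACLY lay at the starts of other genes.

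ACACA and ACACB encode the acetyl-CoA carboxylases of the cytosol and of the outer mitochondrial membrane. Both had a TSS peak near the middle of the range over coding genes, and both had a peak of higher fold at an internal start. ACACA lies at chr17:37084992-37406836 on the minus strand (ENSG00000278540.5). Its TSS peak was centred 361 bp upstream with a fold of 16.0, 34 fragments and a width of 567 bp. It also lay at the start of TADA2A, a transcription adaptor gene that runs the other way, so its signal cannot be assigned to ACACA alone. The peak 47.4 kb downstream, in intron 1 of the canonical transcript, had a higher fold of 19.3 and 84 fragments, with a width of 513 bp. Its summit lay 279 bp upstream of the start of shorter ACACA transcripts. A weaker peak followed 48.2 kb downstream (fold 6.58, 28 fragments). The sequence around the TSS summit, 361 bp upstream, is shown for its run of GC boxes. It does not reach the canonical start by which it is labelled. It covers chr17:37407097-37407223 on the minus strand, trimmed next to TADA2A:
ACACA canonical start: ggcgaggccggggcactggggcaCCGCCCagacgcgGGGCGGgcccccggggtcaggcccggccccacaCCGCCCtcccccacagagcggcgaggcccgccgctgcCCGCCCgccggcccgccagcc
This trimmed stretch held 4 GC boxes and no CCAAT.

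The other ACACA peaks lay in introns and beyond the gene. In intron 1, peaks 8.99 kb and 33.1 kb downstream had folds of 8.49 and 16.1 with 9 and 21 fragments. In intron 45, 259 kb downstream, a peak 410 bp wide reached a fold of 17.4 with 32 fragments and held an AP-1 match. The flank peak had a fold of 6.24 with 7 fragments. ACACA is 321.8 kb long, and with 1.935 peaks per 100 kb of gene and flanks it had a lower density than most coding genes (26.0% of them were lower).

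ACACB lies at chr12:109116587-109268226 on the plus strand (ENSG00000076555.16) and had 11 peaks within its flanks of 20 kb, more than the other 9 genes. With 50 kb, ACACB and FASN had 14 each. Its TSS peak was centred 627 bp upstream (fold 17.3, 46 fragments, width 198 bp). The GC content within 500 bp of its start was 45.2%, the lowest of the 10 genes. Among coding genes with a GC content under 50% there, 16.64% had a TSS peak, against 75.51% of those with 60% or more. A peak in intron 2, 38.0 kb downstream and 81 bp upstream of an internal ACACB start, had a fold of 18.7 with 33 fragments and 3 GC boxes. The ACACB gene body held 5 further peaks with folds of 5.10 to 12.5. These included a pair in intron 17 and a peak of 13 fragments in coding exon 50, the only member peak in a coding exon. The flanks held 4 peaks. A pair of these, with folds of 5.58 and 17.8, lay at the start of UNG, a DNA repair glycosylase gene. A peak 161 kb downstream (fold 17.7, 39 fragments, width 382 bp) was at no annotated coding start and held 2 CEBP matches, TTGCNNAA.

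FASN, the synthase itself, combined high fragment counts with a middling fold. FASN lies at chr17:82078338-82098294 on the minus strand (ENSG00000169710.9). Its TSS peaks were centred 8 bp and 612 bp upstream, with folds of 11.4 and 14.6 and with 64 and 83 fragments. The count of 83 fragments was higher than at 87.3% of coding genes with a TSS peak, but the fold was higher than at 32.8%. The local background was 4.68 and 4.74 fragments at these peaks, against a median of 1.47 over TSS peaks of all coding genes. The median background over all TSS peaks on chromosome 17 was 1.65, also under the level at FASN. The peak at 612 bp held 2 CCAAT and 3 GC boxes, and the peak at 8 bp held 1 CCAAT and 3 GC boxes. No peak lay in the FASN gene body outside the TSS window. Upstream, a flank peak at 8.21 kb (fold 14.7, 73 fragments, background 4.04) had about the same fold as the TSS peaks and held a CTCF core match. Another at 5.87 kb had a fold of 6.17 with 30 fragments. A downstream flank peak (fold 12.9, 22 fragments) lay at the start of DUS1L.

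SCD, the stearoyl-CoA desaturase that makes oleate, had TSS peaks and a strong peak downstream. SCD lies at chr10:100347233-100364826 on the plus strand (ENSG00000099194.6) and had 8 peaks, or 13.89 per 100 kb, above 95.1% of coding genes. This was the highest density of the 10 loci with a flank of 20 kb. With 50 kb it was 9.35 per 100 kb, below the 11.7 of FASN. Its TSS peaks were centred 165 bp upstream (fold 22.1, 84 fragments, width 288 bp) and 680 bp upstream (fold 5.95, 22 fragments). Both also lay at the start of an unnamed noncoding gene (ENSG00000231188). The sequence at the stronger summit, chr10:100346968-100347168 on the plus strand, is shown for its pair of CCAAT motifs, at 227 and 184 bp upstream:
SCD TSS peak: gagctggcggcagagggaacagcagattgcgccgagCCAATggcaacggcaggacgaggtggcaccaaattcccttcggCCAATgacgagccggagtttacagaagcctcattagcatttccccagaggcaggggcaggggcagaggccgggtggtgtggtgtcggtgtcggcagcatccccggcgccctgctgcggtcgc
It held no GC box, in contrast to the 3 in the ACLY sequence. Downstream of SCD, a flank peak 26.2 kb from the start had a fold of 20.7 and 93 fragments, more fragments than the TSS peak. It lay at the start of the noncoding gene OLMALINC and also held 2 CCAAT matches. A neighbour at 24.2 kb had a fold of 12.4 with 55 fragments. Upstream peaks at 4.7 and 6.1 kb had folds of 9.51 and 10.0. The SCD gene body held 1 peak, in intron 5 (fold 8.27, 15 fragments).

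ELOVL6, the elongase that turns palmitate into stearate, had 5 peaks, none of them at its start. ELOVL6 lies at chr4:110045846-110199199 on the minus strand (ENSG00000170522.10). No summit lay within 1000 bp of its start. The nearest was 2001 bp downstream in intron 1, with a fold of 7.02 and 20 fragments. That peak was 739 bp wide, the widest of the 63. The other gene body peaks, in introns 1, 2 and 3, had 4 to 8 fragments and folds of 4.25 to 7.64. The flank peak beyond its 3′ end reached a fold of 12.8 with 16 fragments. No ELOVL6 peak exceeded 20 fragments.

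ME1, the cytosolic malic enzyme that yields NADPH, had no peak near its start. ME1 lies at chr6:83210402-83431051 on the minus strand (ENSG00000065833.9). The nearest summit lay 80.9 kb upstream, with a fold of 8.20, and was outside the locus. The GC content within 500 bp of the start was 67.5%, which is in the range where 75.51% of coding genes had a TSS peak. The 250 bases before its RefSeq start, chr6:83431052-83431301 on the minus strand, are shown as the GC-rich promoter without a peak:
ME1 promoter: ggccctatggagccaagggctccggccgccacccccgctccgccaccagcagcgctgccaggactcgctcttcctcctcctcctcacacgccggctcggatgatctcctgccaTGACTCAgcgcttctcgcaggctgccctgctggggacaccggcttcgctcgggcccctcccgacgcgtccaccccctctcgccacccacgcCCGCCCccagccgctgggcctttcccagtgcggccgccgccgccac
It held 1 GC box and 1 AP-1 match. The ME1 body held a peak of 5 fragments in intron 5 (fold 5.10) and a peak of 16 fragments in intron 13 (fold 13.6). The peak in intron 5 had 5 CCAAT matches around its summit. Both flank peaks (folds 9.13 and 18.1, 25 and 51 fragments) lay at the starts of PGM3 and RWDD2A. With 1.535 peaks per 100 kb, ME1 had the lowest density of the 10 genes, above 21.4% of coding genes.

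MLXIPL encodes ChREBP, the glucose-responsive factor of the pathway. MLXIPL lies at chr7:73593194-73624543 on the minus strand (ENSG00000009950.16). Its TSS peak, centred 47 bp upstream, was modest in fold (12.1, above 21.8% of coding genes with a TSS peak) with 48 fragments. Its sequence is shown up to the most upstream exon, chr7:73624544-73624669 on the minus strand:
MLXIPL TSS peak: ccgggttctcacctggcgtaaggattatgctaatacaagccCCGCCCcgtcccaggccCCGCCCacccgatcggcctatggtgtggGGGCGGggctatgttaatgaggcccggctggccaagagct
It held 3 GC boxes and no CCAAT. A wider peak 1302 bp downstream in intron 1 was stronger, with a fold of 18.0, 71 fragments and a width of 487 bp. In intron 2, a peak 11.6 kb downstream had a fold of 19.4 with 61 fragments. It was the only member peak with a match to the FOXA motif, TGTTTAC, and it also held an AP-1 match. A neighbour 9.99 kb downstream had a fold of 5.77 with 17 fragments. The highest fold in the locus, 27.5 with 72 fragments, lay at the start of TBL2 in the flank.

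THRSP lies at chr11:78063861-78068351 on the plus strand (ENSG00000151365.2) and had neither a TSS peak nor a gene body peak. Its 5 flank peaks had 15 to 17 fragments and folds of 6.63 to 11.7. The nearest lay 1841 and 2631 bp upstream, with folds of 8.76 and 9.38. A downstream peak lay at the start of NDUFC2. The density of 11.24 peaks per 100 kb, above 90.1% of coding genes, rests on a gene of 4.491 kb with long flanks. GPAM, the mitochondrial acyltransferase of glycerolipid synthesis, lies at chr10:112149865-112215377 on the minus strand (ENSG00000119927.14). It had no peak at its canonical start. A peak 31.7 kb upstream of that start (fold 11.0, 17 fragments) lay 125 bp upstream of the longer transcript GPAM-203. The single gene body peak, in intron 5 at 6320 bp downstream, had a fold of 15.7 with 25 fragments. The highest fold at GPAM was 22.8 with 42 fragments, in the downstream flank and at no canonical gene start.

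**Figure D2:**
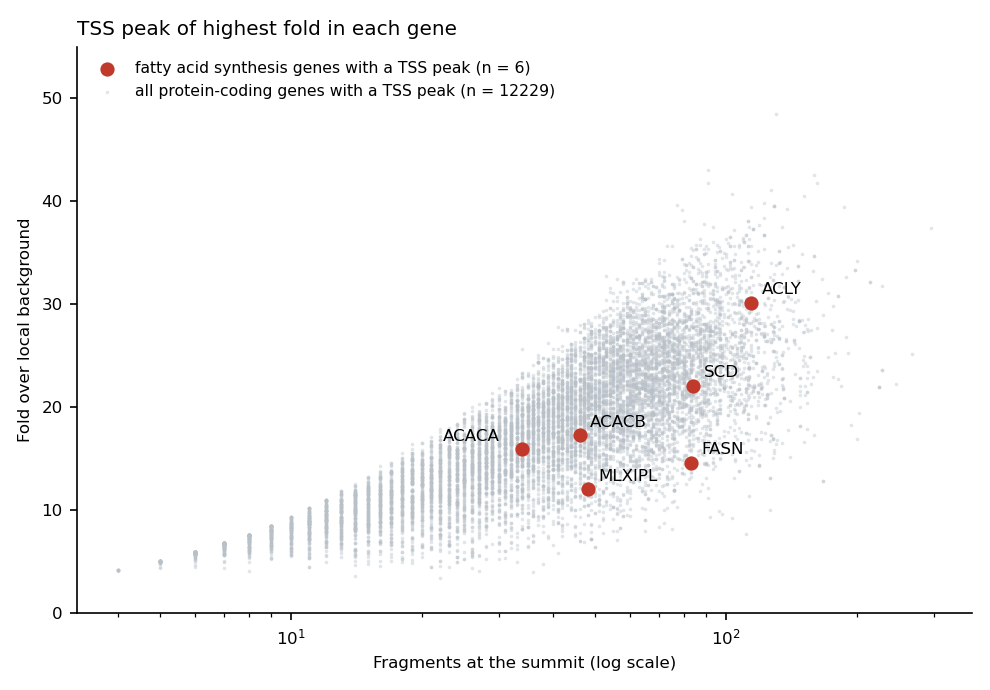
The highest-fold TSS peak of each gene, with fragments at the summit on a log x axis and the fold over local background on the y axis; red points are the 6 fatty acid synthesis genes with a TSS peak and grey points the 12229 coding genes of the genome that have one. ACLY lies in the upper right, and FASN, at 83 fragments and a fold of 14.6, lies low for its fragment count.

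By class, the peaks of these genes were set beside those of all protein-coding genes. The 8 TSS peaks had a median fold of 15.3 (5.95 to 30.2), against 15.6 over 13578 TSS peaks of all coding genes. Their median fragment count was 56, against 37, and their median background was 2.85, against 1.47. The TSS peaks of these genes thus had more fragments at a like fold, over a higher background. Gene body peaks had a median fold of 10.5 and 18.5 fragments, against 9.90 and 15 over coding gene bodies. Flank peaks had a median fold of 11.0 and 22 fragments, against 9.98 and 16. In 5 of the 24 gene body peaks (20.8%) the background was at the lowest level the caller used, against 11.9% over coding gene bodies. Among the 8 member peaks with a fold of 20 or more, 2 were TSS peaks, at ACLY and SCD. The highest fold of a locus lay in the flank for 6 of the 10 genes, at the TSS for 2 and in the gene body for 2. Flanks held 31 of the 63 peaks, and 4 of the 10 genes had no TSS peak. Neither the place of the highest fold nor the class of peaks with a fold of 20 or more was counted over all coding loci. These counts therefore do not set the 10 genes apart.

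Several of the 63 peaks lay at the starts of other genes. In 10 of them (15.87%) the summit lay within 1000 bp of the start of another coding gene, and in 15 of another gene of any type. Those at TADA2A and ODAD4 also lay at a start of ACACA or ACLY itself. Of all 60474 nuclear peaks, 13578 lay at the start of a coding gene, a wider count that includes a gene's own start. Of the 31 flank peaks, 8 were at the start of another coding gene, namely DUS1L, UNG, KLHL11, TBL2, NDUFC2 with NDUFC2-KCTD14, and PGM3 with RWDD2A. Of the 24 gene body peaks, 22 lay in introns of the canonical transcript, and 5 were within 1000 bp of another start of the same gene. These counts, and the 15 at genes of any type, were not made over all coding loci. They therefore do not set the 10 genes apart.

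The letters around the summits were searched for 13 motifs of factors known at lipogenic or liver promoters, on both strands and within 100 bp of the summit. At least 1 motif was found in 43 of the 63 peaks (68.3%), against 86.9% of coding TSS peaks and 67.9% of all nuclear peaks. GGGCGG was found in 21 member peaks (33.3%), against 67.7% of TSS peaks of coding genes and 25.8% of all nuclear peaks. It was found in 6 of the 8 member TSS peaks. CCAAT was found in 19 member peaks (30.2%), against 29.5% of coding TSS peaks and 23.9% of all nuclear peaks. It was found in 4 of the 8 member TSS peaks, at ACLY, FASN and SCD. Both motifs occurred together in 8 member peaks, and their joint share was not counted over coding TSS peaks or all nuclear peaks. The CCAAT share was close to both backgrounds, and the GGGCGG share lay between them. The E-box CACGTG, bound by USF factors, was found in 5 member peaks (7.94%), against 4.82% of all nuclear peaks, and in none of the 8 TSS peaks.

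Motifs of the lipogenic activators themselves were rare everywhere. The sterol response element TCACNCCAC was in none of the 63 peaks, against 1.02% of all nuclear peaks. The ChORE of ChREBP and the LXR DR4 were in none either, against 0.0182% and 0.0496% of all nuclear peaks. A ChORE can contain CACGTG, so these searches overlap. Among the motifs of liver factors, HNF4A was in 1 member peak (1.59%, against 1.91% of all nuclear peaks), FOXA in 1 (1.59%, against 7.21%) and CEBP in 6 (9.52%, against 11.0%). AP-1 was found in 5 (7.94%, against 9.27%) and the CTCF core in 2 (3.17%, against 7.64%). Within 200 bp of the summit the order turned for CEBP (20.6%, against 18.7%) and AP-1 (19.0%, against 14.1%). At that distance the sterol response element was in 1 member peak, a TSS peak (1.59%, against 2.0% of all nuclear peaks). A match is a run of letters and not a bound site, and sites that differ from these letters were not counted. In RefSeq promoters of GRCh38, from 250 bases before to 50 after the start, 9 of the 10 genes were matched, all but FASN. CCAAT was in a promoter of 6 of these 9 genes, and 34.6% of 35116 single promoters held it. GGGCGG was in a promoter of 8 of 9 genes and in 45.0% of single promoters. A gene counted if any of its promoters matched, so these gene counts and promoter shares are not like measures. ELOVL6, GPAM and ME1 had GGGCGG in the promoter and no peak at the canonical start.

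**Figure D3:**
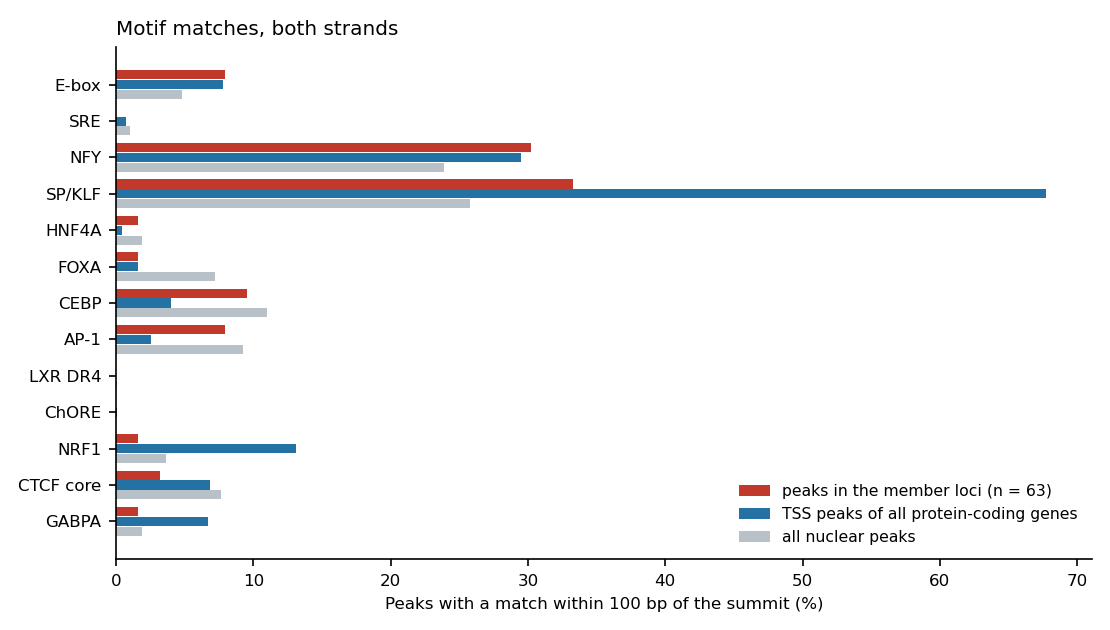
Share of peaks (%) with a motif match within 100 bp of the summit, on both strands, for the 63 peaks of the fatty acid synthesis genes (red), TSS peaks of all protein-coding genes (blue) and all nuclear peaks (grey). SP/KLF and NFY are the most frequent in the red bars, at 33.3% and 30.2%, and SRE, ChORE and LXR DR4 have no red bar.

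Genes around the core pathway were counted in the same way. The lists of precursor supply and NADPH, elongation and desaturation, glycerolipid assembly, lipogenic regulators, cholesterol synthesis and fatty acid oxidation held 126 genes. Of these, 111 had a TSS peak (88.1%, interval 81.13 to 93.18%), against 61.0% of all coding genes. With the ChREBP-linked sugar genes, which had the lowest share of the pathway lists, it was 118 of 138 (85.51%). Both are larger shares than the 6 of 10 core genes, whose interval is wide, and the difference was not tested. The lists of the 126 genes had median GC contents of 62.5 to 68.1% within 500 bp of the start. Over all coding genes the median was 61.3%. Of coding genes with 60% or more, 75.51% had a TSS peak, and no comparison matched for GC content was made. In precursor supply and NADPH, 15 of 16 genes had a TSS peak. The highest folds were at ME2 (31.2, 85 fragments), the mitochondrial malic enzyme, at PC (25.3), pyruvate carboxylase, and at PDHB (24.3), a pyruvate dehydrogenase subunit. The exception was ME3. So among the malic enzyme genes, ME2 had a TSS peak and ME1 and ME3 did not. In elongation and desaturation, 13 of 16 genes had a TSS peak, with HSD17B12 (27.3), ELOVL3 (26.3) and TECR (26.1) highest. HSD17B12 and TECR encode the reductases that work with ELOVL6 in each elongation cycle. SCD5, ELOVL4 and HACD4 had none.

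In activation and glycerolipid assembly, 16 of 22 genes had a TSS peak. ACSL3 (32.5, 166 fragments), a long-chain acyl-CoA synthetase, LPIN3 (31.3) and LPIN1 (21.3), both phosphatidate phosphatases, were highest. Among lipogenic regulators, 22 of 24 had a TSS peak, and PPARG and INSIG1 had none at their canonical starts. Over all annotated starts PPARG had 4 peaks and INSIG1 had 0. The summit nearest to the canonical start of PPARG lay 1093 bp away, just outside the window. The highest regulator folds were at PRKAA1 (27.7) and PRKAG1 (25.0), subunits of AMPK, which inhibits the acetyl-CoA carboxylases, and at STK11 (26.3), its upstream kinase. SREBF1, which encodes SREBP-1c, had a fold of 10.7 with 39 fragments at its canonical start. Over all its annotated starts it had 3 peaks, and the start used for SREBP-1c was not determined. MLX, the partner of ChREBP, had a fold of 14.4 with 48 fragments. SREBF1 and MLX were named after their values were seen. Of the ChREBP-linked sugar genes, 7 of 12 had a TSS peak, led by ARRDC4 (28.0), TXNIP (26.3) and KHK (25.5), the ketohexokinase. SLC2A5, G6PC1 and FGF21 were among those without.

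Sterol synthesis, which shares acetyl-CoA and the SREBP factors with fatty acid synthesis, had a TSS peak at 22 of 22 genes, with a median fold of 22.9. SC5D (34.3), MVD (33.2) and HSD17B7 (32.9) were highest. The 6 core genes with a TSS peak had a median fold of 16.6. Both medians take the highest-fold TSS peak of each gene, for which all coding genes gave 17.9. The opposing pathway, fatty acid oxidation, had 23 of 26 genes with a TSS peak. ECHS1 (30.1) and the shared start of HADHA and HADHB (27.6) were highest. ACADL and CPT1A, the carnitine transferase that malonyl-CoA inhibits, were among those with none at their canonical starts. The hepatocyte character of the line was also checked, and 9 of 10 hepatocyte lineage markers had a TSS peak. FGA (25.4), SERPINA1 (21.7) and TTR (18.9) were highest, and ALB had none, with its nearest summit 15.2 kb away. Of 10 markers of other cells, 1 had a TSS peak, SYP (17.8).

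**Figure D4:**
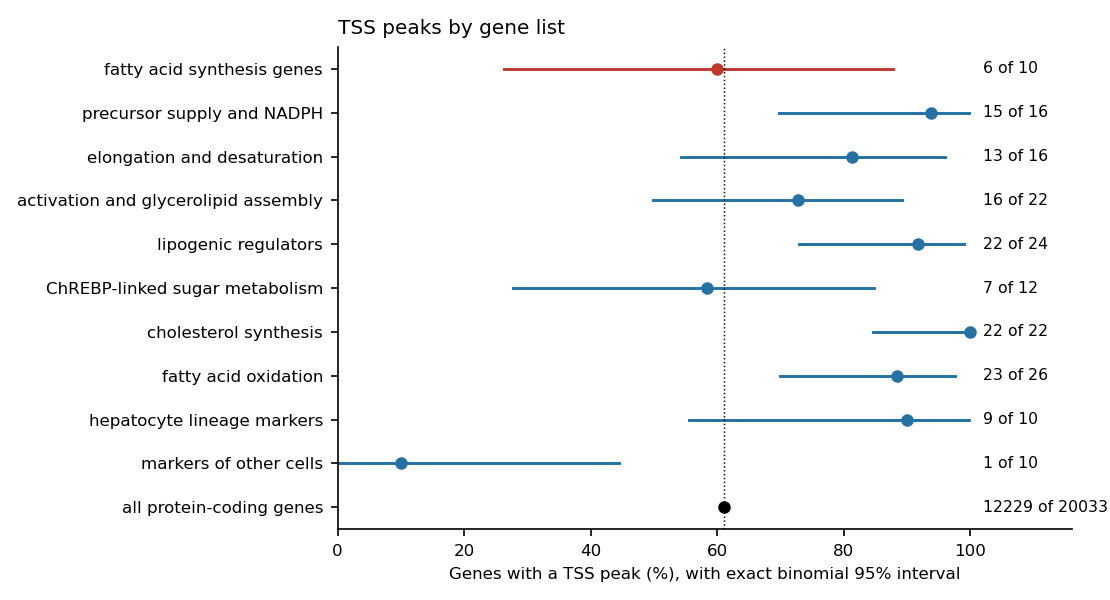
Share of genes with a TSS peak (%) by list, with points for the share, bars for the exact binomial interval and the counts at the right; red is the fatty acid synthesis genes and black all protein-coding genes, whose share is drawn as a dotted line. The 10 fatty acid synthesis genes, with 6 of 10, lie beside the dotted line at 61.0%, and cholesterol synthesis has 22 of 22.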

How the data were processed

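Bulk ATAC-seq peaks of 1 HepG2 library, fixed with 0.1% FA and cryopreserved, were analysed. According to the methods, the authors mapped reads to GRCh38 with Bowtie2 in snakePipes, kept uniquely mapped pairs, removed duplicates with samtools and ran MACS2 on this library alone. The submitters' processing notes also name cutadapt, deepTools 3.5.5 and bcl2fastq. A version of MACS2 and any Tn5 shift are not given in the sources used here. Peak names refer to short fragments, so longer fragments may be absent from the values.

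The authors deposited for each peak a score (10 times the −log10 q, rounded down), the fold ratio at the summit, the −log10 p, the −log10 q and the summit position, which gives the class of a peak. Fragments at a summit were worked out from fold and −log10 p together, with the MACS2 formulas and a pseudocount of 1. Total depth was not given, and intervals cover counting error only.

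Summits were placed on GENCODE 44 genes. The 10 genes, the gene lists and the motifs were chosen with earlier results of these data known. Named genes are the 10 genes, up to 3 genes of each other list with the highest TSS fold, list genes lacking a TSS peak where at most 5 lack one, and genes starting within 1000 bp of a member summit. Some items this rule takes are not reported here. No test was run. On simulated data, fragments were recovered for 2000 of 2000 peaks, and bedtools 2.31.1 gave the same peak number for 300 of 300 loci. Alternatives were other TSS windows, flanks, −log10 q minima and motif windows. Scripts used scipy 1.17.1, pandas 2.3.3, numpy 2.4.6, pysam 0.24.0 and matplotlib 3.10.9 under Python 3.11.15.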

Additional observations from a re-analysis of the deposited data

How the results depend on the processing

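Of 90 recomputed values, 75 stayed close to the reported one and 15 moved. A flank of 50 kb in place of 20 kb gave 98 peaks in the loci and put 24.49% of them in gene bodies, since the added peaks are all flank peaks by construction. The number of fatty acid synthesis genes with a TSS peak was 5 with a window of 500 bp, 8 with 2500 bp and 7 with any transcript start, and it stayed at 6 with a −log10 q of at least 10. The other pathway genes ranged from 86.51 to 92.86% over the same settings. The share of all coding genes was not computed for the windows of 500 and 2500 bp. With a flank of 50 kb, ACLY had 12 peaks, FASN 14, MLXIPL 11, THRSP 9 and GPAM 8. With 10 kb, THRSP and ME1 had 2 each, and with a −log10 q of at least 10 ELOVL6 had 2. Adding the ChREBP-linked sugar genes, chosen after seeing the data, gave 85.51% of pathway genes. AP-1 was found in 3 member peaks within 50 bp of the summit and in 12 within 200 bp, CEBP in 13 within 200 bp, and the E-box in 2 and NFY in 11 within 50 bp. No paired analysis was possible because 1 library was analysed. The library had no replicate, and 9 of the 63 peaks held at most 10 fragments.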

Other observations

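The TSS peaks of the fatty acid synthesis genes followed GC content only in part. The GC content within 500 bp of the start was 78.9% at FASN, 71.3% at ACACA, 67.7% at ACLY, 65.3% at MLXIPL and 65.1% at SCD, all of which had a TSS peak. ME1, at 67.5%, lay within this range without a peak. ACACB, at 45.2%, had one, while THRSP (55.4%), ELOVL6 (56.8%) and GPAM (57.3%) had none. The ratio of observed to expected CpG was 0.222 at THRSP, the lowest of the 10 genes, against a median of 0.725 over all coding genes.

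Just beyond the 20 kb limit, FASN had 5 more peaks within 30 kb of the gene, with folds of 5.78 to 18.7. THRSP had 3 there, with folds of 7.73 to 17.7, each of which had more fragments than any peak inside its locus, with 18, 32 and 47 fragments.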
